A study of Mus musculus with 18 samples.

Results

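The 38 genes described here encode enzymes of cholesterol and fatty acid synthesis and proteins that control, move or export sterols. They were taken by symbol from a deposited count table of 57180 mouse genes. All 38 were found once each, and all 38 were among the 15832 genes that passed the low-count filter and were tested. They are described as 7 enzymes of the mevalonate arm, 11 enzymes of the sterol arm that follows it, 5 genes of SREBP control, 3 of sterol uptake and transport, 4 of LXR and efflux and 8 of fatty acid synthesis. The series title names integrin αV, an adhesion receptor subunit for matrix proteins, as a possible target in aneurysm and dissection of the aorta. Smooth muscle cells from the thoracic aorta of C57BL/6 mice were transfected with a scramble siRNA or with an siRNA against Itgav, the gene of integrin αV. They were then left without stimulus or given TGF-β or PDGF-BB. Each of the 6 resulting groups has 3 RNA-seq libraries, 18 in all. Every group thus received an siRNA, and no group was left untransfected. No dose, time, mouse age or siRNA sequence was given in the labels, and the loss of Itgav and other effects of its siRNA cannot be told apart. The labels do not say whether the 3 libraries of a group came from separate cultures, and a p-value therefore reflects only how far these libraries spread, which could be technical.

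Cells make cholesterol from acetyl-CoA. The mevalonate arm builds isoprenoid units, and the sterol arm joins them into squalene, closes the rings and trims the product to cholesterol. Genes of both arms are targets of SREBP2, encoded by Srebf2, and those of fatty acid synthesis are targets of SREBP1, encoded by Srebf1. SREBPs are held in the endoplasmic reticulum with their escort Scap by the Insig proteins when sterols are plentiful, and are carried to the Golgi and cut free when sterols run low. LXRα and LXRβ, encoded by Nr1h3 and Nr1h2, are nuclear receptors for oxysterols and raise the cholesterol exporters Abca1 and Abcg1, Mylip and Srebf1. In the aortic wall, smooth muscle cells that take up more cholesterol than they export can become foam cells.

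SREBPs act on promoters together with NF-Y, which binds the box CCAAT, and with Sp1, which binds GGGCGG. Promoters of RefSeq (GRCm38.p6), from 250 bases before to 50 after a transcription start, were matched by symbol to 29 of the 38 genes and to 15 of the 18 synthesis enzymes. Each motif was searched on both strands, and matches of different motifs were counted whether or not they overlapped. CCAAT was present for 14 of the 15 synthesis enzymes, or 93.3%, against 43% of the 11202 tested genes with a promoter and 37.4% of all 32851 promoters of that length. GGGCGG was present for 14 of 15 as well, against 67% of tested genes and 35.7% of promoters. The core of a sterol regulatory element, searched as TCACNCCAC, was found for Hmgcs1 alone among the 29 genes, against 1.42% of tested genes and 1.24% of promoters. The E-box CACGTG was found for 3 of the 15 enzymes (20%), against 11.3% of tested genes and 7.15% of promoters. AGGTCA repeated after 4 bases, a form of the LXR site, was found for none of the 29, against 0.0179% of tested genes and 0.0152% of promoters. Of the 3 matched LXR and efflux genes none had CCAAT, and of the 5 matched fatty acid genes 2 had it, Acly and Fasn. These matches are letters in a window and were not tested against any change in expression. The 150 bases before the most upstream annotated start are shown for 4 synthesis enzymes that fell more than 2-fold after Itgav siRNA, chosen to show the box, and for Insig1, which rose. They lie at chr10:76531438-76531587 (plus strand), chr9:42264301-42264450 (minus), chr13:119690201-119690350 (plus), chrX:72918371-72918520 (plus) and chr5:28071213-28071362 (plus). Capitals mark ATTGG, which is CCAAT on the opposite strand, and in Hmgcs1 also the sterol element core. Insig1 has no box in these 150 bases and 1 in the promoter window.
Lss: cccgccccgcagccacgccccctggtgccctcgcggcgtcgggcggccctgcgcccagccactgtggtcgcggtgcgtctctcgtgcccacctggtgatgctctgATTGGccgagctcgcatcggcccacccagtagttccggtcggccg
Sc5d: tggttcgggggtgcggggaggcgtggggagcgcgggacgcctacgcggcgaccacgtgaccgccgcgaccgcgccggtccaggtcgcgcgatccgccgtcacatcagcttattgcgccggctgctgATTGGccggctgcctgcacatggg
Hmgcs1: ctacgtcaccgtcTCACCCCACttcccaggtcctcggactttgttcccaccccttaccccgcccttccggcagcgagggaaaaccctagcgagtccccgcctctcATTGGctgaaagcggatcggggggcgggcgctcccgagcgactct
Nsdhl: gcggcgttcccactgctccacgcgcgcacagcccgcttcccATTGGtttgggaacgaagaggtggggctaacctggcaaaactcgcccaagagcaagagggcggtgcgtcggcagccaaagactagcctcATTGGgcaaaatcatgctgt
Insig1: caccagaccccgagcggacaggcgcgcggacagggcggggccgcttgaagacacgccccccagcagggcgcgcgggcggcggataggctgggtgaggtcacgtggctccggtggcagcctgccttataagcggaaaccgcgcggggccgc

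The libraries held 17705072 to 21592916 counts. Levels are given in CPM, a gene's count divided by its library's total and scaled to the same total in every library, with the SD over 3 libraries, and changes as log2 fold changes with their standard error. A gene passed at a Benjamini-Hochberg adjusted p under 0.05 in edgeR's quasi-likelihood test, adjusted over all 15832 genes. The siRNA lowered its target in every medium: Itgav stood at 300, 326 and 323 CPM in unstimulated scramble libraries and at 14.8, 14.1 and 16.4 CPM after its siRNA, and its log2 fold changes were -4.39, -4.28 with TGF-β and -3.81 with PDGF-BB. Summed over 8 smooth muscle markers, group means ran from 425 to 6905 CPM and were lower after the siRNA in each medium (2125 to 1090, 6905 to 3369 with TGF-β, 996 to 425 with PDGF-BB). Counted by edgeR's test, 1 of these 8 rose and 5 fell without stimulus, 0 and 8 with TGF-β, and 1 and 6 with PDGF-BB. Synpo2 stood at 29, 31.2 and 31 CPM in unstimulated scramble libraries and at 42.1, 44.5 and 44.8 CPM after the siRNA. Other marker sums were also lower after the siRNA in each medium: without stimulus, with TGF-β and with PDGF-BB, 7 adipocyte markers went from 14.8 to 5.38, 28.2 to 9.65 and 29.4 to 14.9 CPM. Most of this sum was Fabp4, at 13.1, 12.5 and 11.5 CPM in unstimulated scramble libraries. Pparg, the other adipocyte marker tested, passed with PDGF-BB alone, as higher. The 5 endothelial markers went from 61.3 to 50, 52.7 to 47.9 and 69.4 to 58.8 CPM, and 5 adventitial fibroblast markers from 92.2 to 75, 37.5 to 34.1 and 145 to 103 CPM. By edgeR's test 1 endothelial marker rose and 3 fell without stimulus, 1 and 1 with TGF-β, and 0 and 3 with PDGF-BB. Of the adventitial markers 3 rose and 1 fell in each medium (median log2 fold changes 1.02, 0.61 and 0.88). Cd34 held 79.3, 76.3 and 76.1 CPM of their sum in unstimulated scramble libraries. Of all tested genes 25.9%, 24.1% and 29.4% rose and 27.5%, 24.3% and 29.9% fell. The 4 mesothelial markers went from 78.4 to 57.1, 37.5 to 19.7 and 109 to 60.7 CPM, while 8 macrophage markers stood at 18.7 against 20.2, 10.2 against 13.3 and 24.9 against 26.2 CPM. Mesothelial markers passed as 0 higher and 2 lower without stimulus, 1 and 2 with TGF-β, and 0 and 3 with PDGF-BB. Of the adipocyte markers Adipoq, Plin1, Cidec, Lep and Cfd were too low to be tested, as were Adgre1, Itgam and C1qa of the macrophage list. Interferon response genes moved strongly with the siRNA: 10 of 10 listed genes rose in each medium, with sums of 266 to 6683 CPM in unstimulated cells, 102 to 744 with TGF-β and 155 to 4881 with PDGF-BB. Scramble unstimulated replicate 1 held 143 CPM of these against 314 and 341 in the other libraries of its group. The part of these genes and of the marker genes in the results below was not tested.

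**Figure D1:**
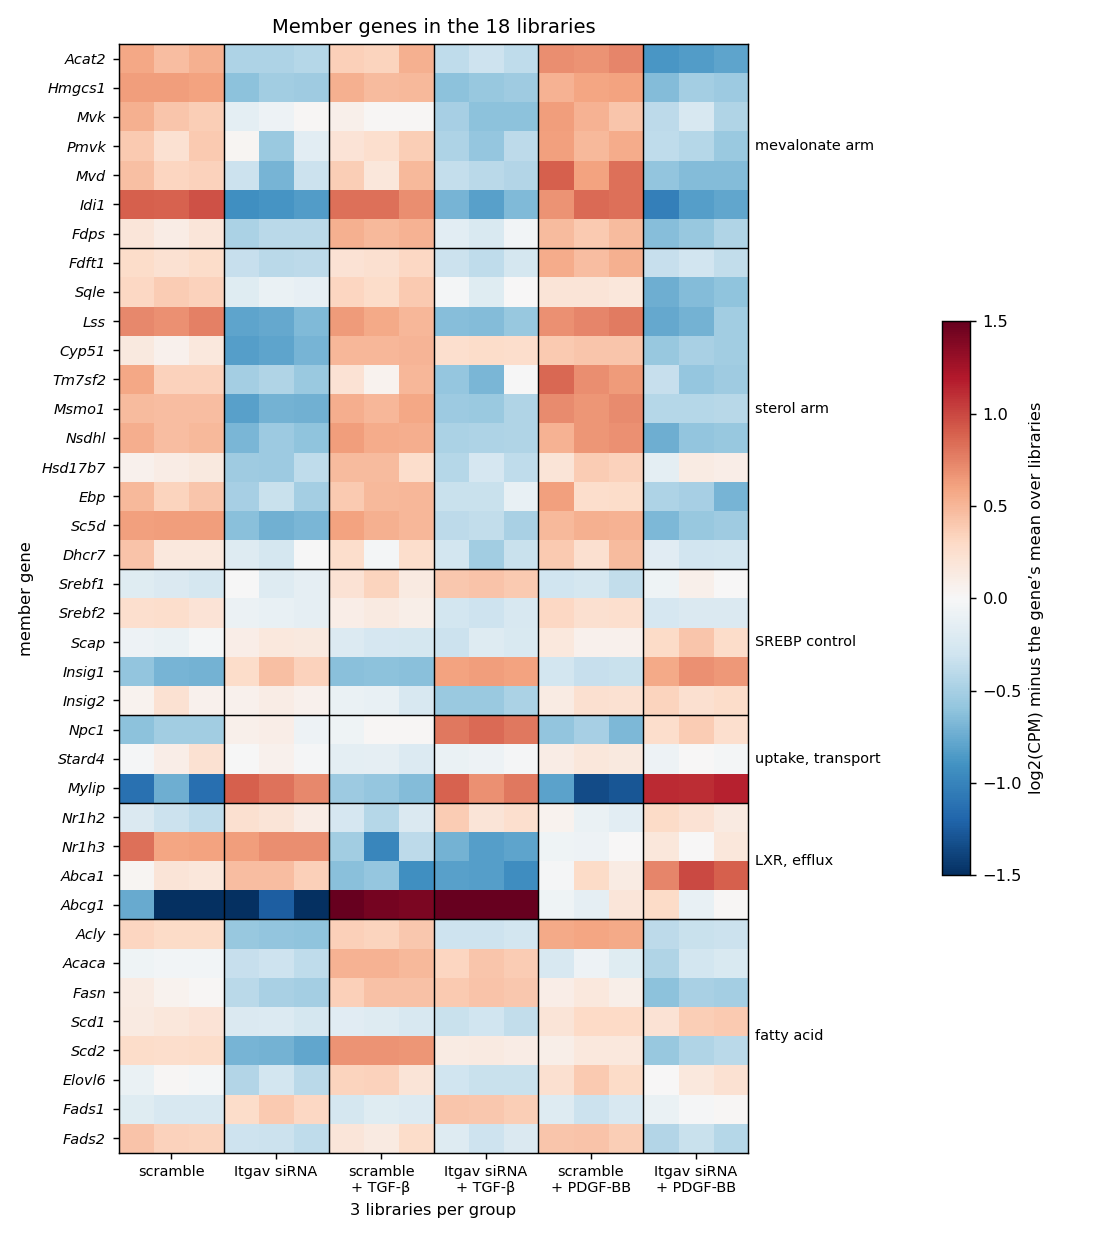
Level of each of the 38 genes (rows, by role) in each of the 18 libraries (columns, 3 per group), as log2 CPM minus the gene's mean over all libraries; red is above and blue below the mean, and colours stop at 1.5 in either direction, which the rows of Abcg1 exceed. Rows of both synthesis arms are mostly red in scramble and blue in Itgav siRNA groups, with Cyp51 still red in siRNA cells with TGF-β, while Insig1 and Mylip show the opposite pattern.

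Itgav siRNA lowered every enzyme of the mevalonate arm, in unstimulated cells, with TGF-β and with PDGF-BB. In the same order it lowered 27.5%, 24.3% and 29.9% of all tested genes. Idi1, which makes the isoprenoid unit dimethylallyl diphosphate (ENSMUSG00000058258, chromosome 13, 8885501 to 8892451, plus strand), stood at 222, 220 and 230 CPM in unstimulated scramble libraries and at 63, 64.5 and 66.6 CPM after the siRNA. It was at 210, 211 and 193 against 73.6, 67.6 and 75.1 CPM with TGF-β, and at 190, 214 and 211 against 58.2, 67.3 and 69.1 CPM with PDGF-BB. No siRNA library came near a scramble library, and the fall was 3.46-fold, 2.84-fold and 3.16-fold (log2 fold changes -1.79 ± 0.062, -1.5 ± 0.062 and -1.66 ± 0.062). Hmgcs1, the synthase that makes HMG-CoA (ENSMUSG00000093930, chromosome 13, 119690379 to 119708260, plus strand), held 352, 354 and 347 CPM in unstimulated scramble libraries and 149, 159 and 158 CPM after the siRNA. Its fall was 2.26-fold, 2.1-fold with TGF-β and 2.2-fold with PDGF-BB, nearly the same size in each medium. Acat2, the thiolase that makes acetoacetyl-CoA for the first step, went from 92.8, 85.3 and 89.9 to 45.1, 45.2 and 46.2 CPM in unstimulated cells and from 101, 99.3 and 103 to 33.9, 34.8 and 35.9 CPM with PDGF-BB. Its log2 fold changes were -0.97 ± 0.053, -0.77 ± 0.053 with TGF-β and -1.54 ± 0.053 with PDGF-BB. The kinases Mvk (-0.50, -0.62 and -0.88 in the same order) and Pmvk (-0.54, -0.75 and -1.0), the decarboxylase Mvd (-0.81, -0.75 and -1.42) and Fdps, the farnesyl diphosphate synthase (-0.59, -0.65 and -1.0), fell as well. For each of these 7 genes the 3 siRNA libraries lay below the 3 scramble libraries in every medium. How often this held among all tested genes was not counted.

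The 11 enzymes of the sterol arm fell in all 3 media too. Without stimulus, with TGF-β and with PDGF-BB, 27.5%, 24.3% and 29.9% of all tested genes fell. Lss, which closes the sterol rings to lanosterol (ENSMUSG00000033105, chromosome 10, 76531588 to 76557138, plus strand), went from 67.6, 66.2 and 69.1 to 23.7, 24.2 and 26 CPM in unstimulated cells. Its fall was 2.75-fold there (log2 fold change -1.46 ± 0.061), 2.28-fold with TGF-β and 2.63-fold with PDGF-BB. Sc5d, a sterol desaturase (ENSMUSG00000032018, chromosome 9, 42251595 to 42264256, minus strand), went from 314, 318 and 317 to 133, 125 and 128 CPM in unstimulated cells (-1.30 ± 0.045). Msmo1, an oxidase that removes methyl groups (ENSMUSG00000031604, chromosome 8, 64718139 to 64733792, minus strand), was the enzyme of this arm with the highest level per length and went from 290, 286 and 287 to 118, 127 and 126 CPM (-1.22 ± 0.04). None of these values overlapped between the groups, which was not counted over all tested genes. Nsdhl, the dehydrogenase that works with Msmo1, changed by -1.11, -1.04 and -1.26 in unstimulated, TGF-β and PDGF-BB cells, and the reductase Tm7sf2 by -0.93, -0.65 and -1.22. The isomerase Ebp changed by -0.86, -0.71 and -0.94 and the squalene synthase Fdft1 by -0.64, -0.58 and -0.85. The squalene epoxidase Sqle changed by -0.48, -0.40 and -0.85, the reductase Hsd17b7 by -0.59, -0.76 and -0.28 and Dhcr7, a late reductase, by -0.41, -0.54 and -0.62.

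Over both arms, 18 of 18 enzymes were lower after Itgav siRNA in each medium and none was higher, with no overlap between the groups for any of them. Groups were also apart, in either direction, for 34, 35 and 32 of 44 other tested genes of lipid handling. These are without stimulus, with TGF-β and with PDGF-BB, and groups apart were not counted over all tested genes. Among all tested genes 27.5% were called lower in unstimulated cells, 24.3% with TGF-β and 29.9% with PDGF-BB, and 25.9%, 24.1% and 29.4% higher. The median log2 fold change of the 18 was -0.88, -0.75 and -1.05, against 0.01 for all tested genes in each medium, and 6, 5 and 10 of them fell at least 2-fold. The comparisons in the 3 media use different libraries. The highest adjusted p among these edgeR tests was 0.0019, for Hsd17b7 with PDGF-BB, and each of the 18 calls held in every alternative fit and without any 1 library. Summed over the 18 genes, the level went from 2356 ± 23.3 to 1181 ± 22.4 CPM in unstimulated cells, from 2408 ± 33.3 to 1391 ± 28 CPM with TGF-β and from 2490 ± 27.3 to 1192 ± 42.6 CPM with PDGF-BB. In these bulk samples fewer cells of a type and less RNA per cell cannot be told apart. The interferon genes rose in the same contrasts, with medians of 5.35, 3.58 and 5.70, and the sums of smooth muscle, adipocyte, endothelial, adventitial and mesothelial markers were lower in them. Single markers in these lists also rose, with 3 of 5 adventitial markers called higher in each medium. Over all 38 genes, 26 fell and 7 rose in unstimulated cells, 26 and 7 with TGF-β, and 26 and 8 with PDGF-BB.

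**Figure D2:**
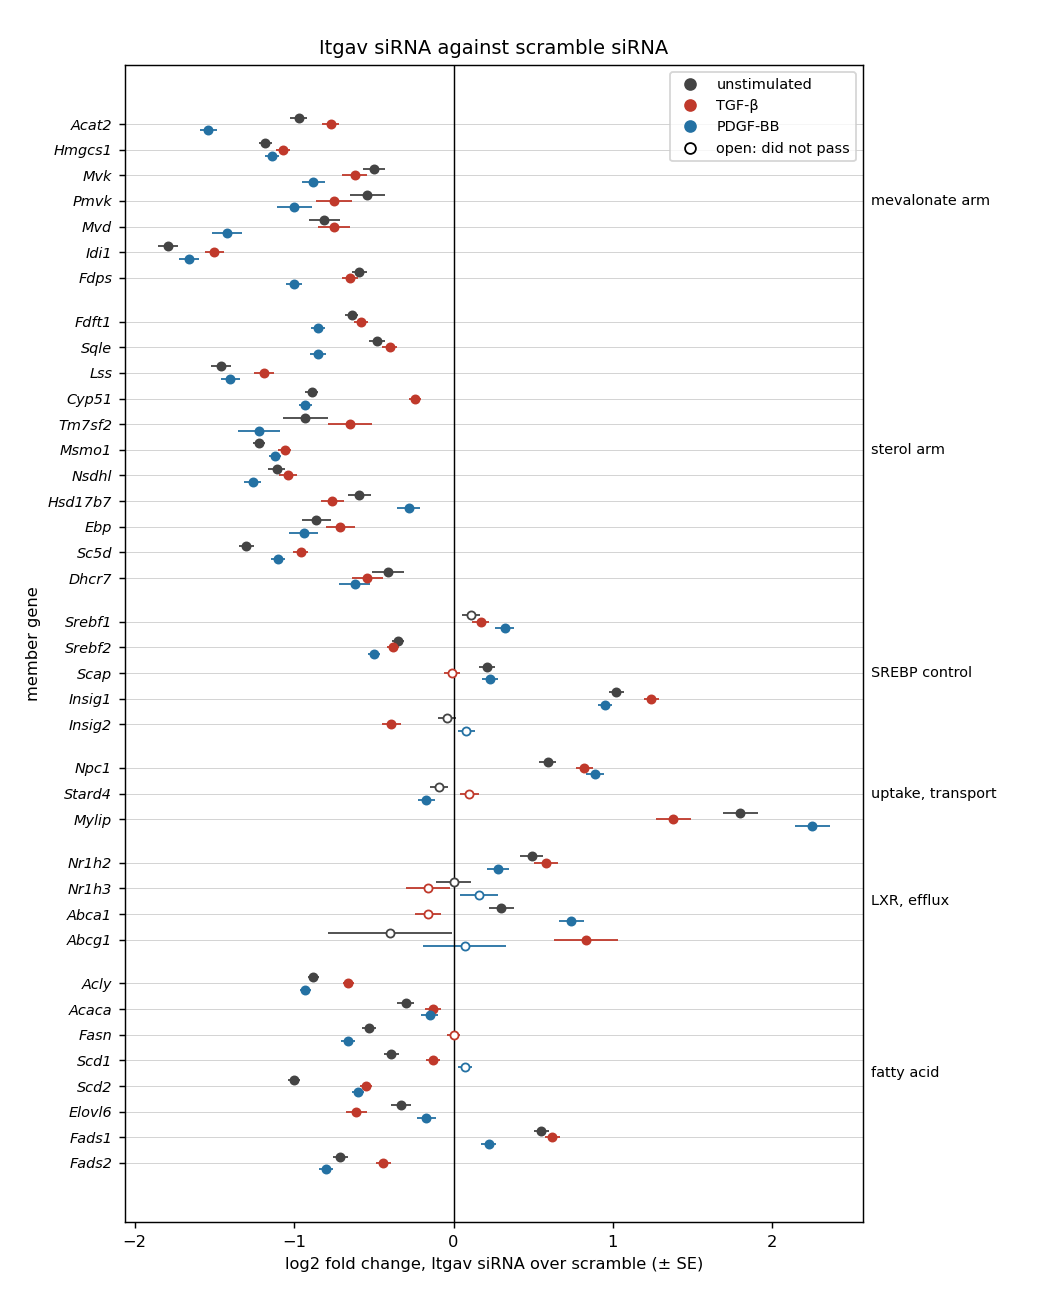
Log2 fold change of Itgav siRNA over scramble siRNA (x axis, ± SE) for the 38 genes in unstimulated, TGF-β and PDGF-BB cells; filled points passed edgeR's test and open points did not. All points of the 18 synthesis enzymes lie left of 0, from -1.79 for Idi1 to -0.24 for Cyp51 with TGF-β, and Mylip lies furthest right at 2.25.

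The size of the fall differed between media for some enzymes, by edgeR's test of the difference between 2 siRNA effects. Cyp51, the lanosterol demethylase (ENSMUSG00000001467, chromosome 5, 4081145 to 4104746, minus strand), went from 211, 200 and 212 to 108, 110 and 118 CPM in unstimulated cells but only from 269, 269 and 272 to 227, 230 and 229 CPM with TGF-β. Its fall was 1.86-fold and 1.18-fold, and the difference of 0.65 ± 0.056 on the log2 scale had an adjusted p of 1.6e-08. With PDGF-BB Cyp51 went from 250, 255 and 254 to 129, 136 and 133 CPM, a fall within the error of the unstimulated one (difference -0.04). Sc5d also fell less with TGF-β than without (difference 0.34 ± 0.063, adjusted p = 0.00038). Of the 18 enzymes 6 passed this test with a difference above 0 and none with one below 0 with TGF-β, and 2 above and 7 below with PDGF-BB. With TGF-β 14 of all 38 genes passed with a difference above 0 and 4 below, where 12.2% and 11% of all tested genes did. That count of 18 was 11 without scramble TGF-β replicate 1 and 11 without Itgav siRNA TGF-β replicate 3, and 9 of the 18 calls held without any 1 library. With PDGF-BB 6 passed with a difference above 0 and 8 below, against 9.51% and 9.32%. There the enzymes with a larger fall than in unstimulated cells included Acat2 (-0.56 ± 0.075), Mvd (-0.60 ± 0.14), Fdps (-0.41 ± 0.071), Mvk (-0.38 ± 0.1) and Sqle (-0.37 ± 0.069), with adjusted p from 1.7e-05 to 0.012. Both differences use the same unstimulated libraries.

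Among the genes of SREBP control the siRNA moved Insig1 and Srebf2 in opposite directions. Insig1, whose product holds Scap and SREBP in the endoplasmic reticulum and which is itself an SREBP target (ENSMUSG00000045294, chromosome 5, 28071363 to 28078662, plus strand), went from 116, 108 and 107 to 211, 239 and 222 CPM in unstimulated cells. It went from 113, 114 and 113 to 265, 269 and 266 CPM with TGF-β and from 145, 138 and 139 to 260, 282 and 275 CPM with PDGF-BB. The rises were 2.03-fold, 2.35-fold and 1.93-fold (log2 fold changes 1.02 ± 0.047, 1.24 ± 0.047 and 0.95 ± 0.046). Insig1 rose in the libraries in which the 18 synthesis enzymes fell. Srebf2 went from 160, 162 and 156 to 127, 125 and 123 CPM in unstimulated cells, a 1.27-fold fall, and fell 1.31-fold with TGF-β and 1.41-fold with PDGF-BB (-0.35 ± 0.037, -0.38 ± 0.038 and -0.50 ± 0.037). Insig2, the second Insig gene, passed with TGF-β, from 56.1, 55.8 and 51 to 40.9, 40.8 and 43.1 CPM (-0.39 ± 0.058), and stood at -0.04 and 0.08 in the other media. The fall of Insig2 with TGF-β differed from its value in unstimulated cells by -0.35 ± 0.08 (edgeR adjusted p = 0.0025). Scap rose 1.16-fold in unstimulated and 1.17-fold in PDGF-BB cells and stood at -0.01 with TGF-β.

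Srebf1 changed little with the siRNA: 0.11 ± 0.057 in unstimulated cells (edgeR adjusted p = 0.11), 0.17 ± 0.055 with TGF-β and 0.32 ± 0.057 with PDGF-BB. The TGF-β call was lost without scramble TGF-β replicate 1 (0.16, adjusted p = 0.052) and without scramble TGF-β replicate 3 (0.12, adjusted p = 0.098). TGF-β itself raised Srebf1, from 59.2, 57.6 and 56.1 to 78.2, 84.5 and 73.9 CPM in scramble cells (0.45 ± 0.056). Srebf1 (ENSMUSG00000020538, chromosome 11, 60199089 to 60222581, minus strand) has transcripts that begin at different starts. The authors' transcript estimates put most counts on ENSMUST00000020846, which begins upstream at 60220604, and fewer on ENSMUST00000144942, which begins downstream at 60210465. In scramble cells the upstream one went from 45.5 ± 1.73 to 53.5 ± 1.68 CPM with TGF-β and the downstream one from 7.96 ± 0.661 to 16.6 ± 3.77 CPM. After the siRNA the downstream one stood at 7.92 ± 2.57 CPM without stimulus and 20.6 ± 1.27 CPM with TGF-β, and the 6 TGF-β libraries, at 12.7 to 22 CPM, all lay above the 6 unstimulated ones, at 5.85 to 10.8 CPM. These are estimates that share reads between transcripts, and no test was made on them. For 27 of the 38 genes 1 transcript held over 90% of the counts.

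**Figure D3:**
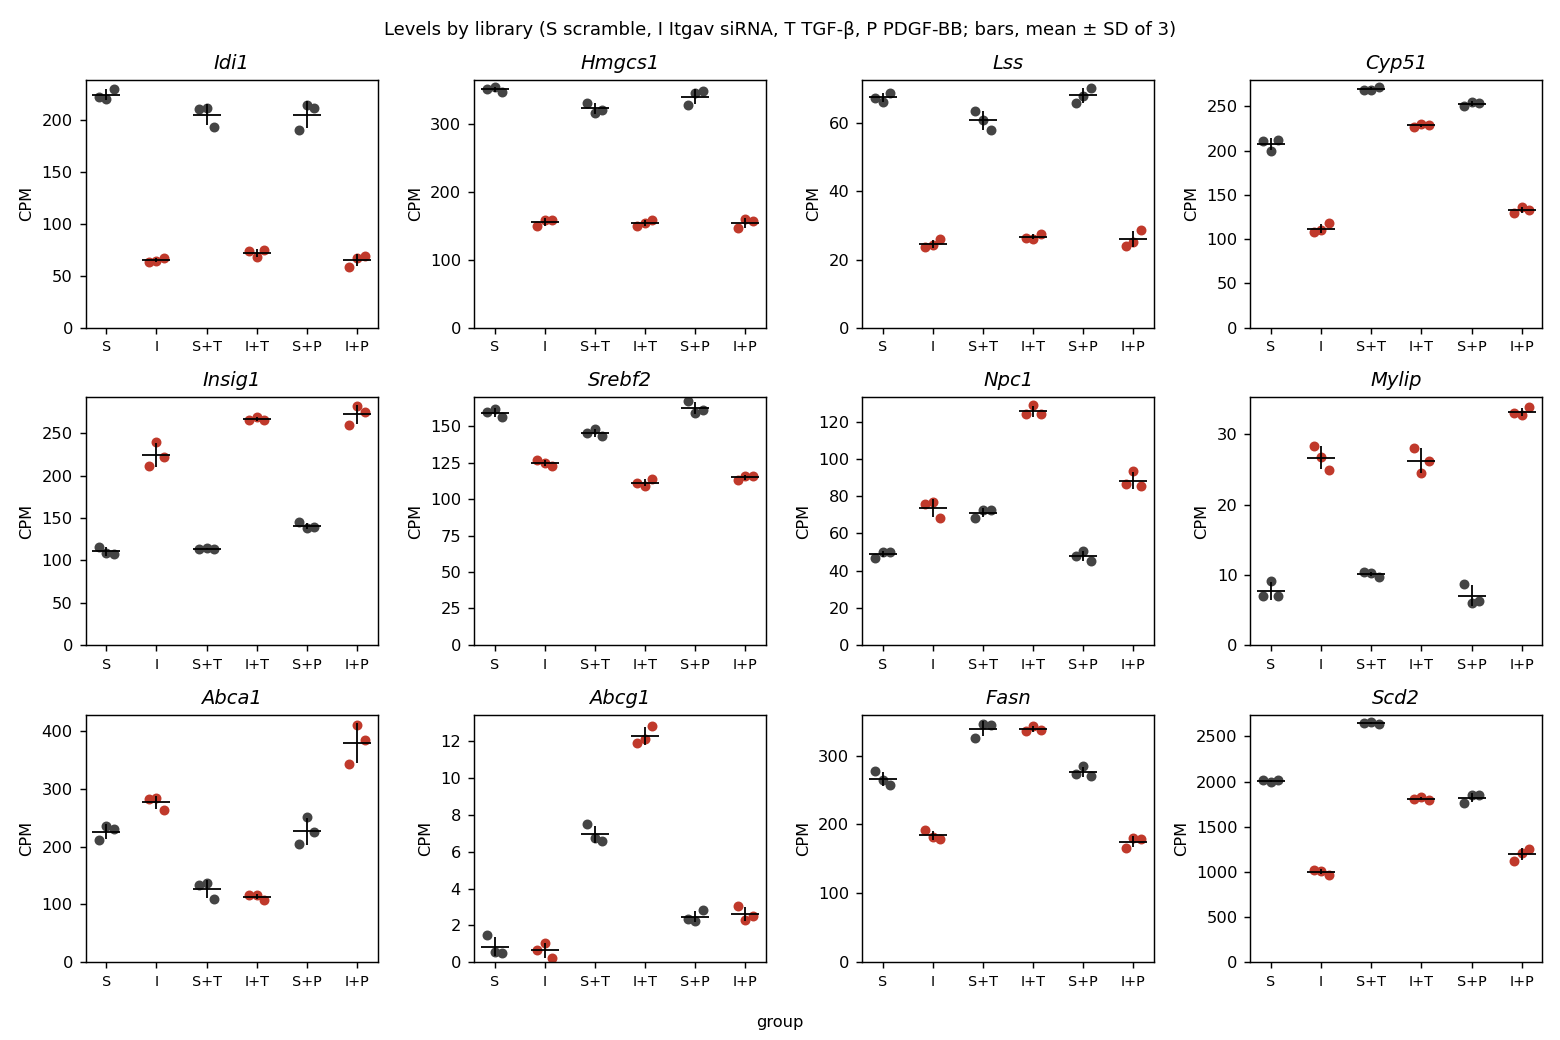
CPM of 12 of the 38 genes in each library (points), with the mean and SD of the 3 libraries of each group (bars); S is scramble siRNA, I Itgav siRNA, T TGF-β and P PDGF-BB. Idi1, Hmgcs1 and Lss show siRNA libraries (red) at similar low levels in all media, Cyp51 and Fasn stand nearer to the scramble level with TGF-β, and Insig1, Npc1 and Mylip are higher after the siRNA.

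Sterol uptake and transport genes did not move as 1 group. Mylip, a ubiquitin ligase that marks lipoprotein receptors for breakdown (ENSMUSG00000038175, chromosome 13, 45389742 to 45412022, plus strand), had the largest rise with the siRNA of all 38 genes. It went from 6.97, 9.13 and 6.92 to 28.3, 26.8 and 25 CPM in unstimulated cells, from 10.4, 10.2 and 9.72 to 28.1, 24.5 and 26.2 CPM with TGF-β and from 8.74, 6.02 and 6.24 to 33, 32.8 and 33.9 CPM with PDGF-BB. The groups were far apart in each medium, with rises of 3.49-fold, 2.6-fold and 4.75-fold (1.80, 1.38 and 2.25, each ± 0.11). Npc1, which lets cholesterol out of lysosomes, went from 46.9, 49.8 and 49.9 to 75.8, 76.7 and 68.1 CPM, from 68.5, 72.5 and 72.4 to 124, 129 and 124 CPM with TGF-β, and from 47.6, 50.6 and 45 to 86.3, 93.6 and 85.2 CPM with PDGF-BB. These rises of 1.51-fold, 1.77-fold and 1.85-fold again left no overlap. The siRNA effect on Npc1 was larger with PDGF-BB than without stimulus (difference 0.30 ± 0.079, edgeR adjusted p = 0.011). Stard4, a carrier of cholesterol between membranes, passed in PDGF-BB cells at -0.17 ± 0.056 and stood at -0.09 and 0.10 in unstimulated and TGF-β cells, without passing.

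Among the LXR genes and exporters, 2 of 4 rose with the siRNA in each medium and none fell, where 25.9%, 24.1% and 29.4% of all tested genes rose and 27.5%, 24.3% and 29.9% fell. With 4 genes these counts are near that background. Nr1h2, the gene of LXRβ, rose 1.4-fold, 1.49-fold and 1.22-fold with the siRNA in unstimulated, TGF-β and PDGF-BB cells, while Nr1h3, the gene of LXRα, passed in none of the 3 (0.00, -0.16 and 0.16). Abca1 (ENSMUSG00000015243, chromosome 4, 53030787 to 53159895, minus strand) stood at 211, 236 and 231 CPM in unstimulated scramble cells and at 283, 284 and 264 CPM after the siRNA (0.30 ± 0.08). With PDGF-BB it went from 204, 251 and 225 to 342, 410 and 384 CPM (0.74 ± 0.08), and with TGF-β it stood at 133, 138 and 109 against 117, 116 and 108 CPM (-0.16 ± 0.084), where the groups overlapped. Abca1 thus rose in the other media, and the siRNA effect with TGF-β differed from the unstimulated one by -0.45 ± 0.12 (edgeR adjusted p = 0.0061) and that with PDGF-BB by 0.45 ± 0.11 (edgeR adjusted p = 0.0082). Abcg1 (ENSMUSG00000024030, chromosome 17, 31057675 to 31117988, plus strand) had the lowest level per length of the genes with such a value. It stood at 1.47, 0.558 and 0.533 CPM in unstimulated scramble cells and at 7.48, 6.72 and 6.6 CPM with TGF-β, and after the siRNA at 0.644, 1.05 and 0.259 and at 11.9, 12.1 and 12.8 CPM. The siRNA raised Abcg1 with TGF-β by 1.77-fold (0.83 ± 0.2, edgeR adjusted p = 0.0017), a rise in 3 of 3 libraries over the 3 scramble libraries, and it did not pass in the other media (-0.40 and 0.07).

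Of the 8 fatty acid genes 7 fell with the siRNA in unstimulated cells, 6 with TGF-β and 6 with PDGF-BB, and Fads1 rose in each. Of all tested genes 27.5%, 24.3% and 29.9% fell and 25.9%, 24.1% and 29.4% rose. Their median log2 fold change was -0.46, -0.29 and -0.39 in that order, against 0.01 for all tested genes. Scd2, a desaturase that makes monounsaturated fatty acids and the member with the highest level per length (ENSMUSG00000025203, chromosome 19, 44293674 to 44306864, plus strand), went from 2018, 1992 and 2016 to 1021, 1015 and 972 CPM in unstimulated cells. With TGF-β it went from 2646, 2658 and 2633 to 1809, 1830 and 1794 CPM and with PDGF-BB from 1763, 1857 and 1848 to 1125, 1215 and 1256 CPM. The falls of 2-fold, 1.46-fold and 1.52-fold (-1.0, -0.55 and -0.60) left all siRNA libraries below the scramble libraries. Fasn, the fatty acid synthase (ENSMUSG00000025153, chromosome 11, 120805846 to 120824547, minus strand), went from 277, 264 and 257 to 192, 182 and 179 CPM without stimulus (-0.53 ± 0.044). With TGF-β Fasn stood at 326, 346 and 345 against 335, 343 and 337 CPM (-0.00 ± 0.043, edgeR adjusted p = 0.95), so its fall was not detected there, and the difference from the unstimulated effect was 0.53 ± 0.061 (edgeR adjusted p = 1.4e-06). Acly, which makes cytosolic acetyl-CoA for both pathways, fell 1.85-fold, 1.58-fold and 1.9-fold. The polyunsaturated fatty acid desaturases parted: Fads2 fell (-0.71, -0.44 and -0.80), and Fads1, also on chromosome 19, rose from 118, 114 and 114 to 162, 176 and 167 CPM without stimulus (0.55, 0.62 and 0.22).

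Acaca, the acetyl-CoA carboxylase, changed by -0.30, -0.13 and -0.15 in unstimulated, TGF-β and PDGF-BB cells and the elongase Elovl6 by -0.33, -0.61 and -0.17. Scd1 changed by -0.39 and -0.13, and stood at 0.07 with PDGF-BB, which did not pass. Of these the Acaca call with TGF-β was lost without scramble TGF-β replicate 1 or 2 (-0.14 and -0.13) or Itgav siRNA TGF-β replicate 1 or 3 (-0.11 and -0.15), and the Scd1 call there without scramble TGF-β replicate 1 or Itgav siRNA TGF-β replicate 3 (-0.12 each). With PDGF-BB the calls of Acaca and Elovl6 were lost without scramble PDGF-BB replicate 2 (-0.11 and -0.13) and without Itgav siRNA PDGF-BB replicate 1 (-0.09 and -0.11). The summed level of the 8 genes went from 3509 ± 25.5 to 2112 ± 47.1 CPM without stimulus, from 4196 ± 11.2 to 3181 ± 25.5 CPM with TGF-β and from 3431 ± 76.6 to 2441 ± 129 CPM with PDGF-BB. Scd2 made up more of these sums than any other gene. The adipocyte marker Fabp4, a carrier of fatty acids, fell with the siRNA as well, from 13.1, 12.5 and 11.5 to 3.43, 3.01 and 3.01 CPM without stimulus, and its part in these results was not tested.

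**Figure D4:**
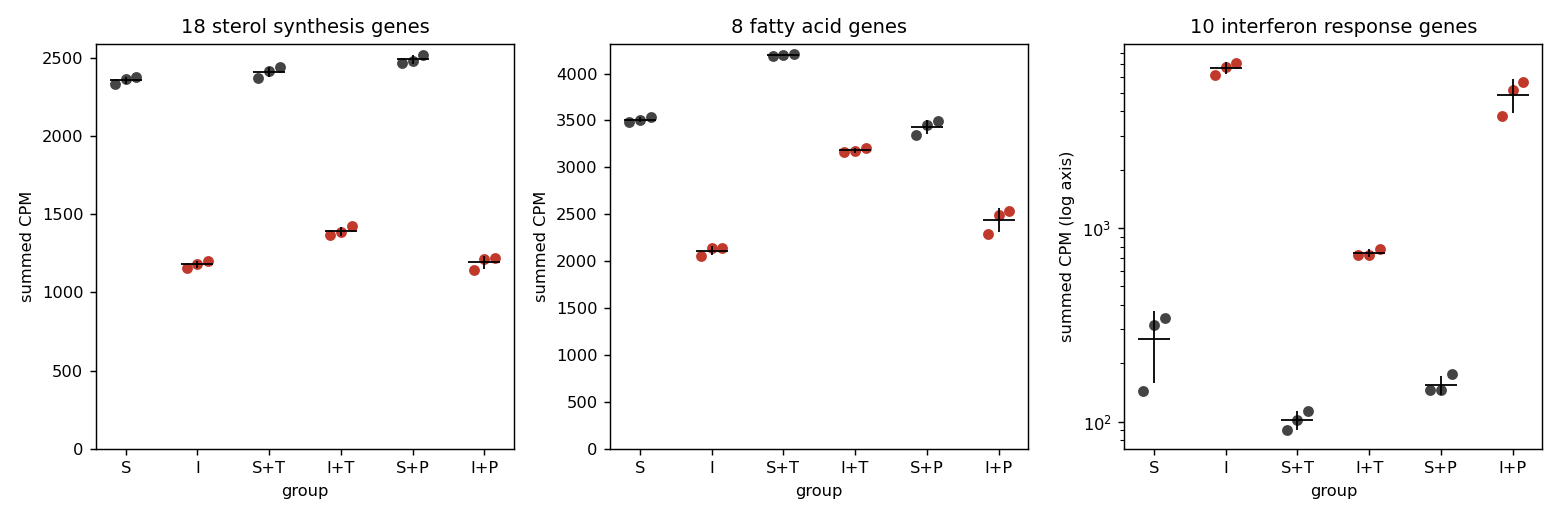
Summed CPM per library (points) with mean and SD of each group (bars) for the 18 sterol synthesis genes, the 8 fatty acid genes and the 10 interferon response genes (log axis in the last panel); S, I, T and P as in the plot of levels by library. The synthesis sum is 2330 to 2520 CPM in all 9 scramble libraries and 1143 to 1422 CPM in all 9 siRNA libraries, while the interferon sum is 90.4 to 341 CPM and 725 to 7101 CPM.

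In scramble cells TGF-β lowered Nr1h3 and Abca1, raised Abcg1 and several fatty acid genes, and left 12 of the 18 synthesis enzymes without a call. Of the 38 genes 11 rose and 11 fell, where 23.4% and 24.8% of all tested genes did, with a median of -0.01. Of the 18 enzymes 3 rose, Cyp51 (0.38 ± 0.039), Fdps (0.35 ± 0.049) and Hsd17b7 (0.30 ± 0.072), and 3 fell, led by Mvk from 37.9, 34.9 and 33.7 to 27.6, 26.6 and 26.4 CPM (-0.40 ± 0.071). The other 2 that fell were Hmgcs1 (-0.12) and Lss (-0.15). Hmgcs1 did not pass without scramble unstimulated replicate 2 (-0.11), scramble TGF-β replicate 2 (-0.10) or scramble TGF-β replicate 3 (-0.11). Lss did not pass without scramble unstimulated replicate 1, 2 or 3 (-0.15, -0.16 and -0.13) or scramble TGF-β replicate 2 or 3 (-0.15 and -0.11). Nr1h3 fell 2.45-fold, from 13.9, 11.8 and 11.9 to 5.45, 3.98 and 5.96 CPM (-1.29 ± 0.12), and Abca1 1.78-fold (-0.84 ± 0.082). Abcg1 rose 7.96-fold (2.99 ± 0.27), or by 2.75 to 3.65 on the log2 scale with 1 library left out. The 3.65 came without scramble unstimulated replicate 1, which was its highest unstimulated library. The 2 exporters, both known LXR targets, thus moved in opposite directions with TGF-β, with no overlap between the groups for either. Among fatty acid genes Acaca (0.55 ± 0.051), Scd2 (0.40 ± 0.036), Fasn (0.35 ± 0.043) and Elovl6 (0.33 ± 0.062) rose, and Scd1 (-0.37 ± 0.045) and Fads2 (-0.17 ± 0.045) fell. Npc1 rose 1.46-fold and Mylip 1.32-fold, the latter at an edgeR adjusted p of 0.01 that became 0.055 without scramble unstimulated replicate 1 (0.33), and Stard4 (-0.27), Insig2 (-0.26), Scap (-0.17) and Srebf2 (-0.14) fell.

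PDGF-BB in scramble cells raised 13 of the 38 genes and lowered 4, where 16.9% and 19.2% of all tested genes rose and fell, with a median of 0.09. Of the synthesis and SREBP control genes Mvd rose 1.33-fold, from 31.3, 28.5 and 29 to 42.5, 34.8 and 40.6 CPM (0.41 ± 0.089), and Insig1 1.27-fold (0.35 ± 0.047). Elovl6 (0.34 ± 0.062), Cyp51 (0.29 ± 0.039), Fdps (0.29 ± 0.049), Acly (0.28 ± 0.034), Fdft1 (0.25 ± 0.042), Msmo1 (0.23 ± 0.039) and Acat2 (0.18 ± 0.05) rose as well. Hsd17b7 (0.20), Nr1h2 (0.24) and Scap (0.17) also passed as higher, and Sqle (-0.16) and Sc5d (-0.11) as lower, but each of these 5 calls was lost when a single library was left out. For Sqle that was scramble unstimulated replicate 2 (-0.14) and for Scap scramble PDGF-BB replicate 1 (0.14). For Nr1h2 it was scramble unstimulated replicate 3 (0.20) or scramble PDGF-BB replicate 1 (0.18). For Hsd17b7 it was scramble unstimulated replicate 1 or 2 (0.18 and 0.21) or scramble PDGF-BB replicate 2 or 3 (0.17 and 0.19), and for Sc5d any of the 6 libraries (-0.12 to -0.10). Scd2 fell by 0.14 ± 0.036 on the log2 scale. Nr1h3 fell 1.65-fold (-0.72 ± 0.11), to 7.52, 7.46 and 7.86 CPM. Abcg1 rose to 2.37, 2.26 and 2.82 CPM (1.52 ± 0.3), while Abca1 stood at 0.01. With 1 library left out the value of Abcg1 ran from 1.27 to 2.18, the latter without scramble unstimulated replicate 1. The comparisons of TGF-β and PDGF-BB share the 3 unstimulated scramble libraries.

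**Figure D5:**
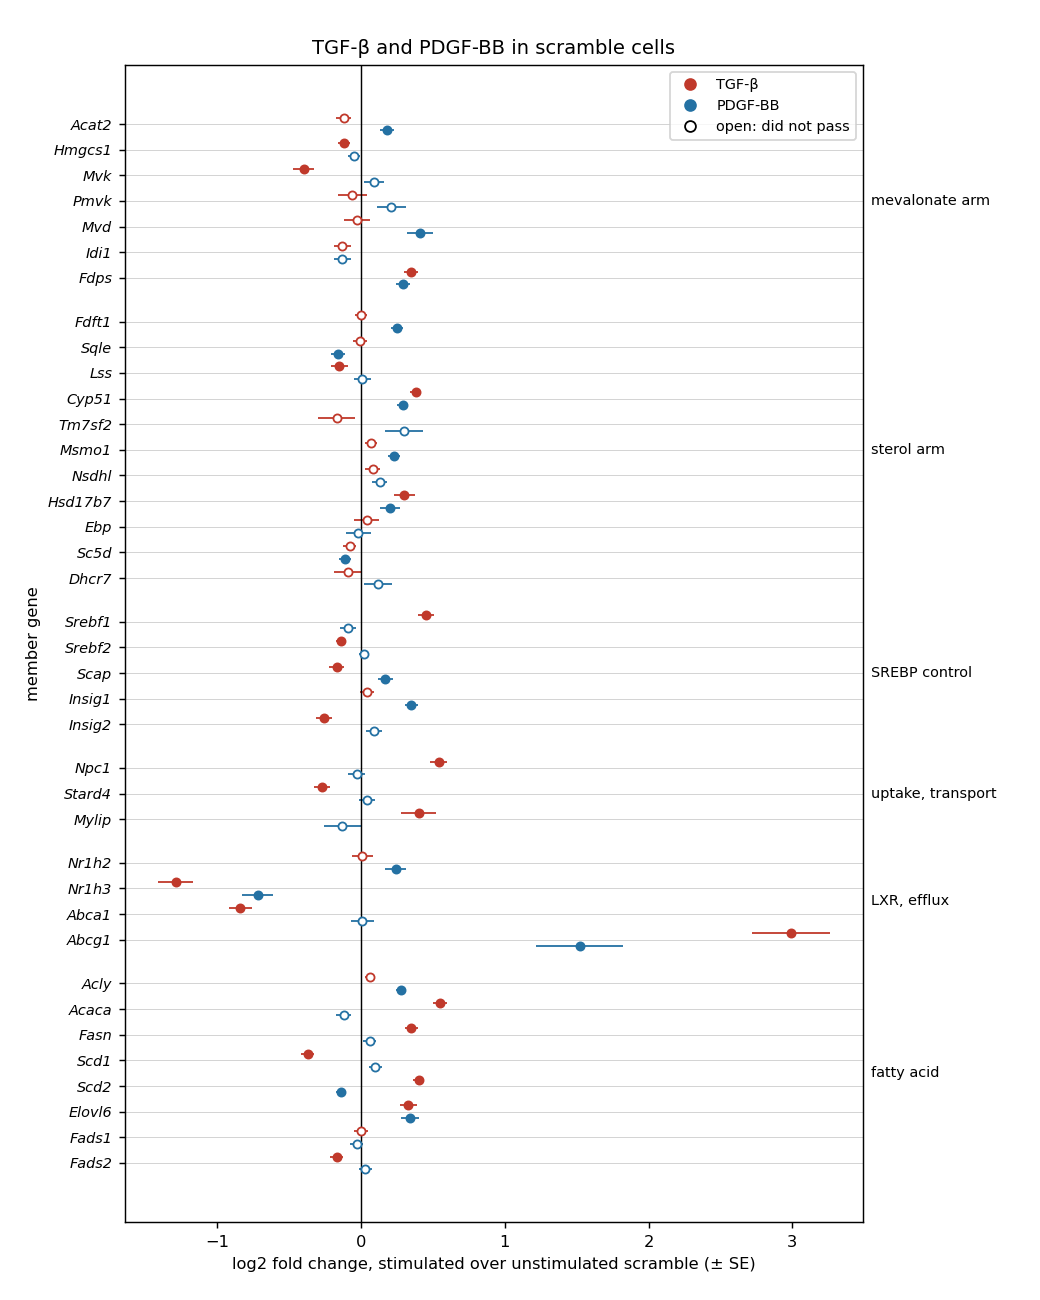
Log2 fold change of TGF-β and of PDGF-BB over unstimulated scramble cells (x axis, ± SE) for the 38 genes; filled points passed edgeR's test and open points did not. Points of the 18 synthesis enzymes lie between -0.40 and 0.41, while Abcg1 reaches 2.99 and Nr1h3 -1.29.

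After Itgav siRNA, TGF-β raised 14 of the 38 genes and lowered 8, against 27.9% and 29.6% of all tested genes. Cyp51 went from 108, 110 and 118 to 227, 230 and 229 CPM, a 2.05-fold rise (1.03 ± 0.04), and Fasn from 192, 182 and 179 to 335, 343 and 337 CPM (0.88 ± 0.044). Scd2 rose by 0.85 ± 0.036, Acaca by 0.72 ± 0.052 and Acly by 0.29 ± 0.035. Abca1 fell 2.45-fold (-1.29 ± 0.083) and Nr1h3 2.73-fold (-1.45 ± 0.12), and Abcg1 rose 18.6-fold (4.21 ± 0.28). With 1 library left out the value of Abcg1 ran from 3.83 to 4.75, the latter without Itgav siRNA unstimulated replicate 2. Insig2 fell by 0.61 ± 0.057 and Scap by 0.39 ± 0.05 on the log2 scale. Calls lost without some library were those of Idi1 (0.16), Nsdhl (0.14), Pmvk (-0.27) and Scd1 (-0.11), each in at least 4 of the 6 ways to leave a library out. The comparisons of both stimuli after the siRNA share the 3 unstimulated siRNA libraries. PDGF-BB after the siRNA raised 14 genes and lowered 6, against 17.2% and 19.2%. Scd1 rose from 291, 294 and 282 to 394, 437 and 444 CPM (0.56 ± 0.045), Elovl6 by 0.50 ± 0.064, Hsd17b7 by 0.51 ± 0.074 and Abca1 by 0.45 ± 0.079. Sqle fell from 141, 149 and 146 to 95.7, 102 and 105 CPM (-0.53 ± 0.049) and Acat2 by 0.38 ± 0.056. The PDGF-BB response of Scd1, Sqle, Acat2 and Abca1 differed from that in scramble cells by edgeR's test of the difference (0.46, -0.37, -0.56 and 0.45), and that of Hsd17b7 did at 0.31 with an edgeR adjusted p of 0.04 that was lost in 8 of 12 fits without 1 library.

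Levels can be compared between genes only per length. For this the authors' transcript counts were divided by the transcript length of the GENCODE M21 annotation and scaled to the same total in each library, as TPM. In unstimulated scramble cells Scd2 was highest at 740 TPM, followed by Msmo1 at 287, Fdps at 249, Hmgcs1 at 215, Scd1 at 159, Fads2 at 155, Sqle at 147, Acly at 141, Sc5d at 139 and Cyp51 at 106. Of these, Scd1 (SD 6.11) and Fads2 (SD 3.49) lay within their spread, as did Acly (SD 0.358) and Sc5d (SD 3.79). Sqle (SD 5.48) lay below Fads2 by more than either SD. Insig1 stood at 86.2 there and at 179 TPM after the siRNA, within the spread of Fdps at 174 and below Scd2. The lowest in unstimulated scramble cells were Dhcr7 at 17.8, Nr1h3 at 14.2, Mylip at 5.03 and Abcg1 at 0.375 TPM. Scd2 stood at 740 ± 8.4 TPM in unstimulated scramble cells, 388 ± 11.6 after the siRNA and 952 ± 26 in scramble cells with TGF-β. Insig1 exceeded Srebf2 in every group on this scale, at 86.2 ± 2.65 against 71.6 ± 1.85 TPM in unstimulated scramble cells and at 179 ± 12 against 58 ± 0.736 after the siRNA. Msmo1 lay above Lss throughout, at 287 ± 2.24 against 23.9 ± 1.11 TPM in unstimulated scramble cells, though both enzymes fell more than 2-fold there. No value is given for Idi1, since 3.284% of its counts were on transcripts with a matched length.

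Of other genes of lipid handling, 46 listed and 44 tested, 15 rose and 14 fell with the siRNA in unstimulated cells, where 25.9% and 27.5% of all tested genes did. With TGF-β 16 rose and 17 fell (24.1% and 24.3% of all tested genes), and with PDGF-BB 21 and 11 (29.4% and 29.9%). The 11 tested genes of uptake, storage and transport among them had 6 higher and 1 lower in unstimulated cells, 9 and 1 with TGF-β and 9 and 1 with PDGF-BB, with medians of 0.22, 0.32 and 0.28. The 17 tested genes of fatty acid and glycerolipid handling had 2 higher and 7 lower, 3 and 10, and 5 and 5 in the same order. Those with the smallest p in unstimulated cells were Vldlr, a receptor for triglyceride-rich lipoproteins (1.10 ± 0.05), the acyl-CoA synthetases Acsl1 (-1.13 ± 0.062) and Acsl4 (-0.88 ± 0.062), Tmem97 (-1.03 ± 0.076) and Slc25a1, the mitochondrial citrate carrier (-0.81 ± 0.065). With PDGF-BB they included Slc25a1 (-1.11), Vldlr (0.90), Tmem97 (-1.23) and Acsl1 (-0.92), and with TGF-β they were Acsl1 (-1.02), Arl4c (0.84), Npc2 (0.45), Gpam (-0.65) and Acsl4 (-0.52). Tmem97, a membrane protein that binds sterols and Npc1, went from 30.9, 31.9 and 28.8 to 16.9, 14.9 and 13.2 CPM in unstimulated cells but stood at 36.2, 34.4 and 37.5 against 34.3, 36.9 and 36.1 CPM with TGF-β. Its siRNA effect differed between these media by 1.02 ± 0.1. In scramble cells TGF-β raised 10 of the 44 and lowered 15 (23.4% and 24.8% of all tested genes), among them Vldlr (-1.34), Pltp (-1.68), Cyb5r3 (-0.82) and Gramd1a (0.62), and PDGF-BB raised 9 and lowered 14 (16.9% and 19.2%), led by Smpdl3a (-1.31), Vldlr (-0.93), Arl4c (0.80), Cyb5r3 (-0.47) and Acsl1 (-0.53). After the siRNA TGF-β raised 18 and lowered 19 (27.9% and 29.6%), and PDGF-BB 8 and 12 (17.2% and 19.2%).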

How the data were processed

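RNA-seq of 18 libraries (6 groups of 3) was used as gene and transcript tables of expected counts that the authors deposited, made with HISAT2 2.2.1 and StringTie 2.1.6 on mm10, per the submitters' processing notes. No strand setting or annotation release was given in the labels, which leaves counts of overlapping genes uncertain. Of values above 0, 76.2% were whole within 1e-06. The authors' deposited group mean signal columns were not used. Libraries held 17705072 to 21592916 counts, which limits the precision of low genes such as Abcg1.

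Counts were rounded and fitted in edgeR 4.0.16 (R 4.3.3, limma 3.58.1) over all 18 libraries, with TMM scaling (factors 0.925 to 1.07) and edgeR's low-count filter at a minimum count of 10. The 15832 genes that passed kept at least 99.91% of each library's counts. The quasi-likelihood test with Benjamini-Hochberg adjustment over these genes gave 9 comparisons, 2 of them differences between siRNA effects. The standard error is the log2 fold change divided by the root of F. CPM use TMM-scaled totals. The code was tested on simulated data. Alternatives were DESeq2 1.42.0 (size factors and test), no low-count filter, genes averaging at least 1 CPM, only the groups compared, summed transcript counts, the replicate block and leaving out each library. Tables and figures used Python 3.11.15, pandas 2.3.3, numpy 2.4.6 and matplotlib 3.10.9.

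All 38 genes are reported. Of the other lipid genes, up to 5 called with the smallest p are named for the siRNA in each medium and for both stimuli in scramble cells, and 1 gene that this rule names is not reported here. Gene lists and members were chosen with earlier results of these data known. Gene positions are from GENCODE M21 and promoters from RefSeq, both on GRCm38. Of the synthesis enzymes with large falls, Idi1, Msmo1, Acat2 and Tm7sf2 are not shown as sequence, the last because a longer annotated transcript spans its stretch.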

Additional observations from a re-analysis of the deposited data

Results flagged for a closer look

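The effect of Itgav siRNA differed between TGF-β and unstimulated cells for 18 of the 38 genes, and between PDGF-BB and unstimulated cells for 14, by edgeR's test of the difference (adjusted p under 0.05 over all tested genes). Each value is the log2 fold change of the siRNA with the stimulus minus that without, and both sets use the same unstimulated libraries. Shares over all tested genes were 12.2% with a difference above 0 and 11% below with TGF-β, and 9.51% and 9.32% with PDGF-BB.

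With TGF-β the difference was 0.65 for Cyp51, 0.34 for Sc5d, 0.29 for Idi1, 0.27 for Lss, 0.21 for Acat2 and 0.16 for Msmo1, a smaller fall than in unstimulated cells. Of these 6 calls 2, those of Cyp51 and Sc5d, held without any 1 library. Among fatty acid genes the difference was 0.53 for Fasn, 0.46 for Scd2, 0.27 for Fads2, 0.26 for Scd1, 0.22 for Acly and -0.28 for Elovl6. In the control and transport genes it was 0.22 for Insig1, 0.23 for Npc1, -0.22 for Scap and -0.35 for Insig2. Abca1 stood at -0.45, and Abcg1 at 1.22, which was 0.56 without scramble unstimulated replicate 1 (adjusted p = 0.43). The calls of Abcg1, Acat2, Elovl6, Idi1, Insig1, Lss, Msmo1, Npc1 and Scap were lost in at least 1 fit without a single library. Of the 10 interferon genes 6 passed with a difference below 0 with TGF-β and the other 4 did not pass (median -1.45), and their part in these values was not tested.

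With PDGF-BB the difference was -0.60 for Mvd, -0.56 for Acat2, -0.46 for Pmvk, -0.41 for Fdps, -0.38 for Mvk, -0.37 for Sqle and -0.21 for Fdft1, a larger fall of these 7 enzymes, and 0.31 for Hsd17b7 and 0.20 for Sc5d, a smaller one. It was 0.46 for Scd1, 0.40 for Scd2 and -0.33 for Fads1 among fatty acid genes, 0.45 for Abca1 and 0.30 for Npc1. The calls of Fdft1, Hsd17b7, Pmvk and Sc5d were lost in at least 1 fit without a single library. None of the 10 interferon genes passed in this difference by edgeR, with a median of 0.33.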

How the results depend on the processing

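Of 4902 values of the 38 genes recomputed over the alternatives, 4664 kept their direction and side of the threshold, 179 lost a call, 59 gained one and 0 reversed. Leaving out a library accounted for 147 of the losses and DESeq2's test for 4. Scaling with DESeq2 size factors moved the median of all genes by at most 0.018. The count of genes whose siRNA effect differed between TGF-β and unstimulated cells was 18 and ranged from 11 to 16 without 1 library, so small differences between media are limited by 3 libraries per group. The siRNA counts of 33, 33 and 34 stayed within 30 to 34. Samples with the same replicate number did not deviate together (r from -0.09 to 0.10 over 45 pairs), 8 of 18 libraries correlated best with their own number, and so the numbers were not taken as pairs. With the replicate block the counts were 22 for TGF-β and 18 for PDGF-BB in scramble cells, 33, 33 and 34 for the siRNA without stimulus, with TGF-β and with PDGF-BB, 23 and 21 for the stimuli after the siRNA, and 18 and 16 for the differences.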
